A study of Mus musculus with 25 samples.

Results

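Hypothalamic microRNAs (miRNAs) were compared between male mouse offspring of dams on a hypercaloric diet (HCD) and of dams on a regular chow diet (RD), with the offspring of both kinds of dam fed HCD after weaning. Groups are written with the dam's diet first and the offspring's diet second, so the comparison is HCD-HCD against RD-HCD males, with 3 libraries in each group. The miRNAs described first are the 47 in a deposited list of this comparison, out of 1618 miRNAs in the deposited tables. A second table then allowed a test of 1377 of the 1618. Entry to the list required a fold of 2 or more together with an unadjusted p-value up to 0.05, so these 2 values chose its members and are given for them as a description.

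All mice were wild-type C57BL/6J and 3 months old. HCD was a high-sucrose diet with 52% fat, given to dams for 1 month before mating and through pregnancy and lactation, and to offspring from weaning. Small RNA of the whole hypothalamus was sequenced from 25 libraries, of which 6 belong to this comparison. The same change of dam diet was also followed in RD-fed males, as HCD-RD against RD-RD (3 and 4 libraries), and in HCD-fed females, as HCD-HCD against RD-HCD (3 libraries each). The labels give neither litters nor whether any library pooled animals, so the spread between libraries may not be that between litters. Of 18 neuron-enriched miRNAs looked for, 18 had no low-count remark in either HCD-fed male group's comparison with RD-RD, as had 7 of 8 muscle and liver miRNAs; the tables give ratios between groups, so the levels of these markers were not set against each other.

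A miRNA is a short RNA that guides an Argonaute protein to messenger RNAs, mostly by pairing of its seed, bases 2 to 8, and lowers their stability or translation. miRNAs with the same seed can share targets, and the strands cut from the 5′ and 3′ arms of 1 hairpin (5p and 3p) have different seeds. In the hypothalamus, which controls feeding and energy balance, miRNA processing is known to be needed for the function of appetite neurons.

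Mature sequences were found in RefSeq (build GRCm38.p6) for 40 of the 47 listed miRNAs, and are shown for those on which the results turn, 5′ to 3′, with the seed in capitals. The first set was higher in HCD-HCD males and is shown because its members fall into pairs with 1 shared seed.
miR-99a-5p: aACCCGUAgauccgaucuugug
miR-100-5p: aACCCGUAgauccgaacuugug
miR-181b-5p: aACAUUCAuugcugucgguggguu
miR-181a-5p: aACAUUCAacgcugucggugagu
miR-34b-3p: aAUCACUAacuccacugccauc
miR-34c-3p: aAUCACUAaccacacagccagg
miR-92a-3p: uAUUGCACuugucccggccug
miR-92b-3p: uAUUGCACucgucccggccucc

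Counted from the 5′ end, miR-100-5p and miR-99a-5p differ by the substitution A16U (base of miR-100-5p first), outside the seed. They come from different chromosomes: the Mir99a hairpin lies at chr16:77598936-77599000 in an intron of the non-coding gene Mir99ahg, and Mir100 at chr9:41531425-41531504 in an intron of the non-coding gene 3110039I08Rik (both plus strand). Mir125b-1, at chr9:41581926-41582002, lies in the same host gene as Mir100.

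The second set was lower in HCD-HCD males. It holds some, not all, of the miRNAs with large folds, and miRNAs that overlap or share a seed with them. miR-7217-5p (fold 2.85) and miR-101a-5p (2.62 in the authors' deposited table) are not shown.
miR-144-3p: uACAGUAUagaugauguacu
miR-33-5p: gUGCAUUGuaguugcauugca
miR-142a-5p: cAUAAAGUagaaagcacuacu
miR-142a-3p: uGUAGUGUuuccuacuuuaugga
miR-142b: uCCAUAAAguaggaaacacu
miR-101a-3p: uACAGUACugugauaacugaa
miR-101c: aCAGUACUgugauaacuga
miR-29b-3p: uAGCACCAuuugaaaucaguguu
miR-301a-3p: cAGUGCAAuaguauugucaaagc
miR-130a-3p: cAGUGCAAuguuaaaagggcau

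The 19 bases of miR-101c all lie within miR-101a-3p, so reads of the pair may not be separable and the value of miR-101c is uncertain. miR-142b is annotated on the strand opposite Mir142, and its 20 bases all lie within the reverse complement of miR-142a-3p. Mir142 (chr11:87756864-87756927, plus strand) sits in an intron of Mir142hg, and Mir33 (chr15:82198122-82198190, plus strand) in an intron of Srebf2, which encodes a transcription factor of cholesterol synthesis.

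Of the 47 listed miRNAs, 10 were higher and 37 lower in HCD-HCD than in RD-HCD males, with folds between 2.01 and 3.06 (median 2.22) in the authors' deposited table. The higher ones included miR-100-5p and miR-99a-5p, members of a family known to target the growth kinase mTOR, and the lower ones included miR-144-3p of red blood cell precursors, miR-33-5p, which restrains cholesterol export, and miR-142a-5p of leukocytes and microglia. Since whole tissue was sequenced, fewer cells of a type and less of a miRNA per cell cannot be told apart. A remark in the authors' deposited table marks 18 of the 47 as having a mean below 10 molecules (unique molecular identifiers, UMIs) in 1 of the groups, and 1 as below 10 in both. The other 28, of which 8 were higher and 20 lower, are the ones described singly here. Adjusted over all 1426 miRNAs with a p-value (Benjamini-Hochberg, with every unlisted miRNA counted as unchanged, which gives an upper limit), 24 of the 47 stayed under 0.05, or 1.68% of all those miRNAs. These were 8 higher and 16 lower, and 23 of them carried no remark.

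**Figure D1:**
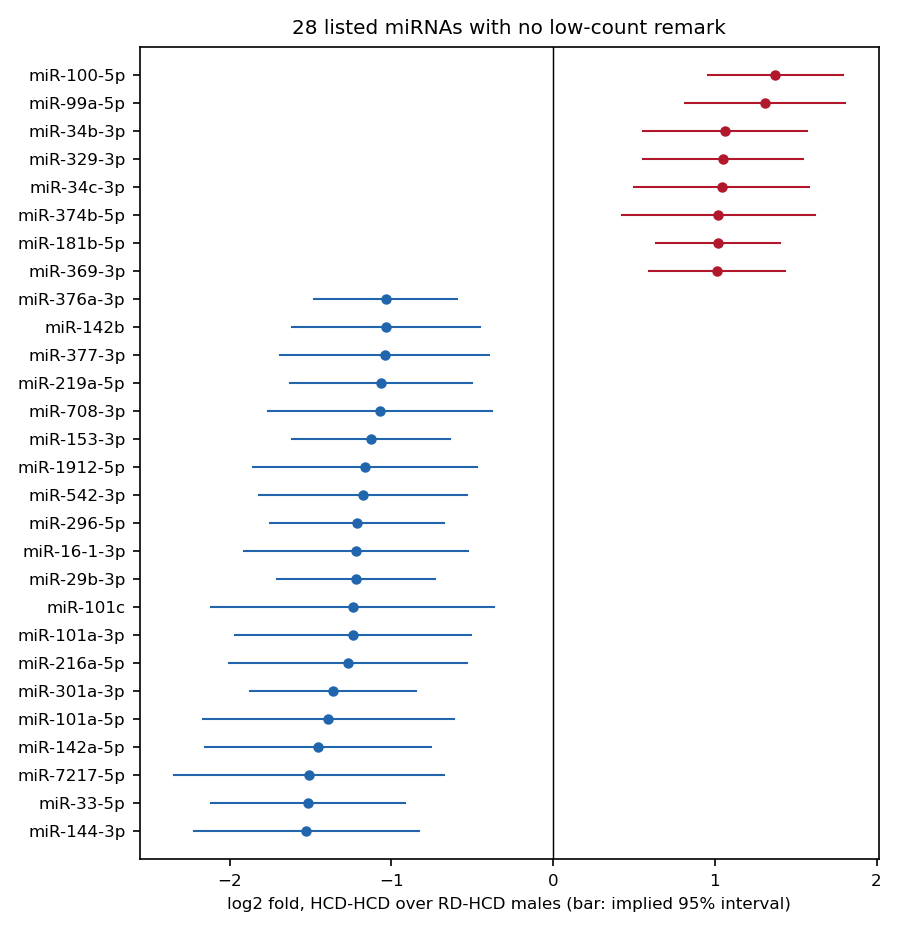
Log2 fold of HCD-HCD over RD-HCD males (x axis) for the 28 listed miRNAs with no low-count remark (y axis), from the deposited list. Points are the deposited folds and bars the 95% intervals implied by the deposited p-values; the list holds only folds of at least 2, so no point lies near 0.

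miR-100-5p had a fold of 2.59 and miR-99a-5p a fold of 2.48 in the authors' deposited table of HCD-HCD over RD-HCD males. Against RD-RD males, both stood at 2.43 in HCD-HCD and 0.93 in RD-HCD males in the authors' deposited table. The HCD-fed males of RD dams were thus close to RD-RD for this pair, and those of HCD dams were higher. Combining the latter ratios, in which RD-RD cancels, gave a log2 difference (HCD-HCD minus RD-HCD) of 1.39 ± 0.26 (SE) for miR-100-5p, with an adjusted p of 6.52e-05. miR-99a-5p had the same difference of 1.39 ± 0.24, with an adjusted p of 8.25e-06. The pair differs by 1 base and may share reads, so their values may not be independent. The third member of the seed family, miR-99b-5p, was at 0.71 ± 0.27 and did not pass (adjusted p = 0.128).

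miR-181b-5p, a miRNA known to act in lymphocytes and in inflammatory signalling, stood at 1.52 in HCD-HCD and at 0.75 in RD-HCD males relative to RD-RD in the authors' deposited table. Its log2 difference was 1.02 ± 0.25 (adjusted p = 0.00474). miR-181a-5p, of the same seed and a neighbouring hairpin but not in the list, was also higher, by 0.87 ± 0.25 (adjusted p = 0.0181). miR-181d-5p (0.48 ± 0.25) and miR-181c-5p (-0.38 ± 0.39) share the seed and did not pass.

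The 3p strands of miR-34b and miR-34c, which come from a hairpin pair induced by p53 and abundant in ciliated cells, were both in the list, at folds of 2.09 and 2.06 in the authors' deposited table. Relative to RD-RD, miR-34b-3p stood at 1.94 in HCD-HCD and 0.93 in RD-HCD males in the authors' deposited table. Its log2 difference of 1.06 ± 0.37 (adjusted p = 0.0726) and that of miR-34c-3p of 1.04 ± 0.34 (adjusted p = 0.0563) did not pass. For the direct comparison, the upper limits of the adjusted p were 0.00465 and 0.0149. They rest on the p-values of the authors' deposited table that also chose the list, so they are a description. The 5p strands of the same hairpins were at -0.85 ± 0.33 for miR-34b-5p and -0.26 ± 0.29 for miR-34c-5p, neither past the test. The arms of Mir34b thus had opposite signs; their difference was not tested.

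The remaining higher miRNAs with no remark were miR-374b-5p, from an intron of the X-linked non-coding gene Ftx, and miR-329-3p and miR-369-3p of the imprinted Dlk1-Dio3 cluster. miR-374b-5p was the highest of all the 28 relative to RD-RD, at 2.86 in HCD-HCD against 1.33 in RD-HCD males in the authors' deposited table. All 3 passed, with log2 differences of 1.10 ± 0.30, 1.10 ± 0.25 and 1.03 ± 0.27 in that order.

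Among the lower miRNAs, miR-144-3p had the largest fold of the 28, at 2.88 in the authors' deposited table. It stood at 0.30 in HCD-HCD and at 0.94 in RD-HCD males relative to RD-RD in the authors' deposited table, and its log2 difference was -1.65 ± 0.38 (adjusted p = 0.0024). The other arm of its hairpin, miR-144-5p, was at -0.53 ± 0.35 and did not pass. miR-451a, the other defining red-cell miRNA, was at 0.14 ± 0.37.

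miR-33-5p stood at 0.25 in HCD-HCD and 0.74 in RD-HCD males relative to RD-RD in the authors' deposited table. Its log2 difference of -1.57 ± 0.32 (adjusted p = 0.000589) passed, and the other arm, miR-33-3p, was at -0.29 ± 0.37. miR-142a-5p was lower by nearly the same amount, at -1.57 ± 0.35 (adjusted p = 0.00165), and stood at 0.26 in HCD-HCD and 0.77 in RD-HCD males relative to RD-RD in the authors' deposited table. Its other arm, miR-142a-3p, fell as well, at -0.82 ± 0.22, and so did the antisense miR-142b, at -1.07 ± 0.27.

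Both arms of Mir101a were in the list. The guide strand miR-101a-3p, known to target the histone methyltransferase Ezh2, was lower by -1.37 ± 0.38 (adjusted p = 0.0129), and miR-101a-5p by -1.58 ± 0.40 (adjusted p = 0.00608). miR-101b-3p, from another chromosome, was at -0.77 ± 0.29 and did not pass. In the miR-29 seed family, which targets collagens and DNA methyltransferases, miR-29b-3p fell, at -1.23 ± 0.26 (adjusted p = 0.000589). Its seed mates miR-29a-3p (-0.07 ± 0.29) and miR-29c-3p (-0.54 ± 0.33) did not pass. miR-301a-3p, from an intron of Ska2, was lower by -1.34 ± 0.32, and the unlisted miR-130a-3p of the same seed by -0.62 ± 0.19 (adjusted p = 0.0384).

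**Figure D2:**
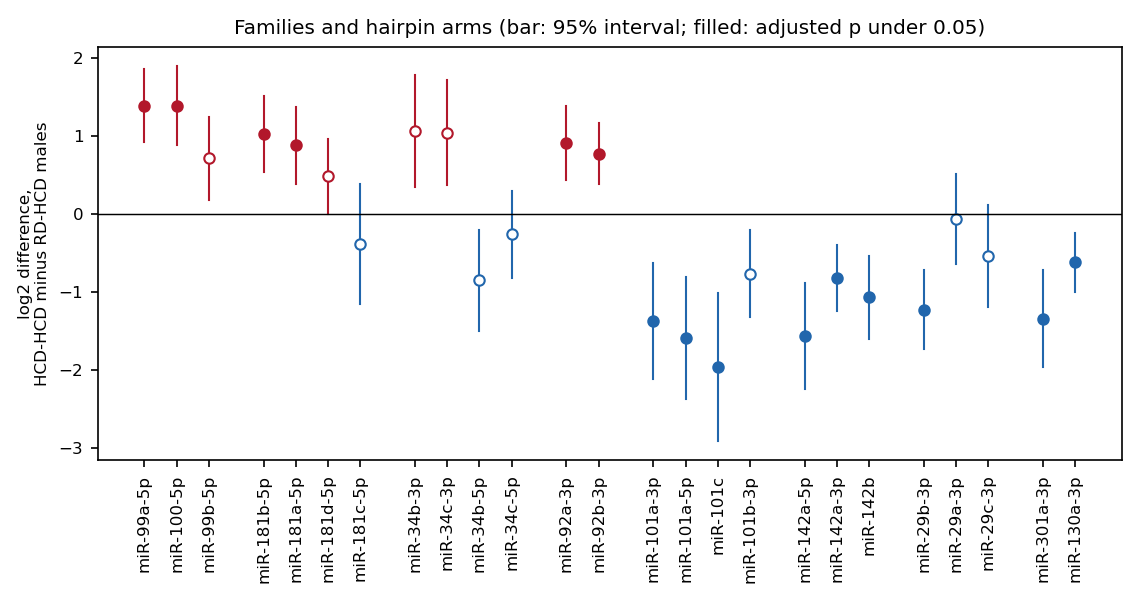
Log2 difference, HCD-HCD minus RD-HCD males (y axis), by miRNA (x axis, grouped by family). The miRNAs are listed or called, or share a seed, a hairpin or a family name with one that is. Bars are 95% intervals and filled points passed at an adjusted p under 0.05; miR-99a-5p and miR-100-5p are both at 1.39, while the arms of Mir34b lie at 1.06 and -0.85.

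The other lower miRNAs with no remark had roles in several tissues. miR-153-3p, a neuronal miRNA from an intron of Ptprn2, was at -1.09 ± 0.30, and miR-296-5p at -1.15 ± 0.37, both past the test. miR-1912-5p, whose hairpin lies within Htr2c, the gene of a serotonin receptor that restrains feeding, was at -1.23 ± 0.35 (adjusted p = 0.0181). miR-7217-5p (-1.74 ± 0.47), miR-708-3p (-1.13 ± 0.36) and miR-376a-3p (-1.04 ± 0.24) also passed. miR-219a-5p, which drives oligodendrocyte differentiation, was at -1.02 ± 0.37 (adjusted p = 0.0998). With miR-216a-5p (-1.15 ± 0.49), miR-542-3p (-1.14 ± 0.42), miR-377-3p (-1.05 ± 0.38) and miR-16-1-3p (-1.24 ± 0.40), it belonged to the listed miRNAs that did not pass this second test. The upper limit of the adjusted p was under 0.05 for these except miR-377-3p (0.0823). It rests on the p-values of the authors' deposited table that also chose the list, so it is a description.

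The 19 listed miRNAs with a remark were 2 higher and 17 lower. The largest deposited fold of all, 3.06 in the authors' deposited table, was that of miR-6935-5p, a miRNA with such a remark. For the 28 with no remark, the log2 difference built from the second table lay within 0.1 of the listed log2 fold in 21, with a median gap of -0.00. For the 19 with a remark this held for 0, and the combined value was larger in size in 18, so single values of these are not interpreted. At the edge of the list, miR-876-5p at 2.01, miR-369-3p at 2.02 and miR-374b-5p, miR-181b-5p and miR-511-5p at 2.03 were just inside in the authors' deposited table. Just outside by the combined value were miR-5113 at 1.98, miR-21a-3p and miR-744-5p at 1.97, miR-3059-5p at 1.95 and miR-210-3p at 1.93. By the combined values, 51 unlisted miRNAs reached a fold of 2 at an unadjusted p up to 0.05, and 48 of these carried a remark. The list was cut on the fold and p of the direct comparison, so these miRNAs do not show whether it is complete.

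Over all miRNAs, the combined test called 58 of 1377, or 4.21%, at an adjusted p under 0.05, of which 19 (1.38%) were higher and 39 (2.83%) lower. Without remarked miRNAs the calls were near even, at 18 higher and 20 lower; of the 20 called miRNAs with a remark, 19 were lower. The calls took in 31 of the 47 listed miRNAs, in the same libraries that made the list, so these passes are no independent support for it. A further 17 with no remark were unlisted, 12 of them higher and 5 lower.

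The unlisted higher miRNAs were led by miR-487b-3p of the Dlk1-Dio3 cluster, at 1.05 ± 0.25 (adjusted p = 0.00331), and the neuron-enriched miR-129-2-3p, at 0.60 ± 0.14 (adjusted p = 0.00421). miR-434-3p (0.54 ± 0.13) and miR-376c-3p (0.79 ± 0.21), also of the Dlk1-Dio3 cluster, rose too, as did miR-3059-5p (0.96 ± 0.28). The seed mates miR-92a-3p, of the miR-17 to miR-92 cluster known from cell proliferation, and miR-92b-3p rose by 0.91 ± 0.24 and 0.77 ± 0.20. The unlisted lower miRNAs were miR-142a-3p, miR-136-5p (-0.88 ± 0.24), miR-467e-5p (-0.82 ± 0.24), miR-3068-5p (-0.63 ± 0.18) and miR-130a-3p.

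Families and functional lists were then read against these values, with the median log2 difference of all miRNAs at 0 and of the 752 with no remark in either group at 0.02. All 11 let-7 and miR-98 guide strands were above 0, between 0.23 and 0.70 with a median of 0.45, and none passed. The 2 with the smallest p were let-7b-5p (0.70 ± 0.25, adjusted p = 0.0998) and let-7a-5p (0.53 ± 0.23). These strands are near-identical and can share reads. In the miR-99 and miR-100 family 2 of 3 rose (median 1.39), and these 2 may share reads. In the miR-125 family 1 of 3 rose, miR-125b-5p, at 0.56 ± 0.18 (adjusted p = 0.0415). The 5 entries of the miR-101 family were all below 0 and 3 fell (median -1.37), of which miR-101c may not be separable from miR-101a-3p. These family counts stand beside 1.38% of all miRNAs called higher and 2.83% called lower. miR-99a-5p, miR-100-5p and the miR-101 entries that fell were among the 47 chosen for their fold in this comparison.

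The list of the miR-17 to miR-92 clusters had 13 entries, including the seed mate miR-92b-3p, whose hairpin lies apart from them on chromosome 3. miR-92a-3p and miR-92b-3p rose, beside 1.38% of all miRNAs called higher, while 10 entries lay below 0 (median -0.37) and none fell. In the list of lipid and glucose metabolism, 2 of 17 tested fell and 0 rose (median -0.24), beside 2.83% of all miRNAs called lower and 1.38% called higher. The 2 were miR-33-5p and miR-144-3p, both among the 47 chosen for their fold in this comparison. Of 16 inflammation-related miRNAs tested, 3 rose, miR-181b-5p, miR-181a-5p and miR-125b-5p, and 0 fell (median 0.37), beside the same shares of 1.38% higher and 2.83% lower. The whole list of 18 ranged from -0.98 to 1.02, with 7 members below 0, and miR-181b-5p was among the 47. In the hypothalamic and neuroendocrine list 0 of 13 tested passed, with a median of 0.16 and with miR-488-3p (0.42 ± 0.18) and miR-384-3p (0.60 ± 0.29) having the smallest p. Of the miR-15 and miR-16 family (6 tested) and the miR-30 family (7 tested), 0 passed.

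Markers of cell types moved in part and not as whole lists. Their counts stand beside 1.38% of all miRNAs called higher and 2.83% called lower. Of 16 neuron-enriched miRNAs tested, 2 rose (miR-487b-3p, miR-129-2-3p) and 2 fell (miR-153-3p, miR-136-5p), with a median of 0.12. Of 8 microglial and leukocyte miRNAs, 3 fell, both arms of miR-142a and miR-511-5p, the latter with a low-count remark, and the list ranged from -1.93 to 0.75 with a median of -0.21. Of 6 erythrocyte miRNAs 1 fell, miR-144-3p, and the list reached 0.74 (miR-486a-5p, adjusted p = 0.0848). Of the endothelial and mural list (9 tested), the oligodendrocyte list (5), the choroid plexus and ependymal list (9) and the muscle and liver list (8), 0 passed. Of the called markers, miR-153-3p, miR-142a-5p, miR-511-5p and miR-144-3p were among the 47 chosen for their fold in this comparison. The part of leukocyte or blood content in the fall of miR-142a and miR-144-3p was not tested.

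The Dlk1-Dio3 cluster on chromosome 12, an imprinted region whose miRNAs are expressed from the maternal chromosome and abundant in brain, had 103 members tested. Of these, 5 rose (miR-329-3p, miR-487b-3p, miR-369-3p, miR-376c-3p and miR-434-3p) and 2 fell (miR-376a-3p and miR-136-5p), with a median of -0.01. These calls compare with 4.21% of all miRNAs called in either direction, and nothing particular to the cluster is read from them. Members that rose and members that fell lay beside each other: the hairpins of miR-434-3p and miR-136-5p are 30.8 and 31.6 kb from the first hairpin. Of the cluster in an intron of Sfmbt2, 1 of 40 tested fell, miR-467e-5p.

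**Figure D3:**
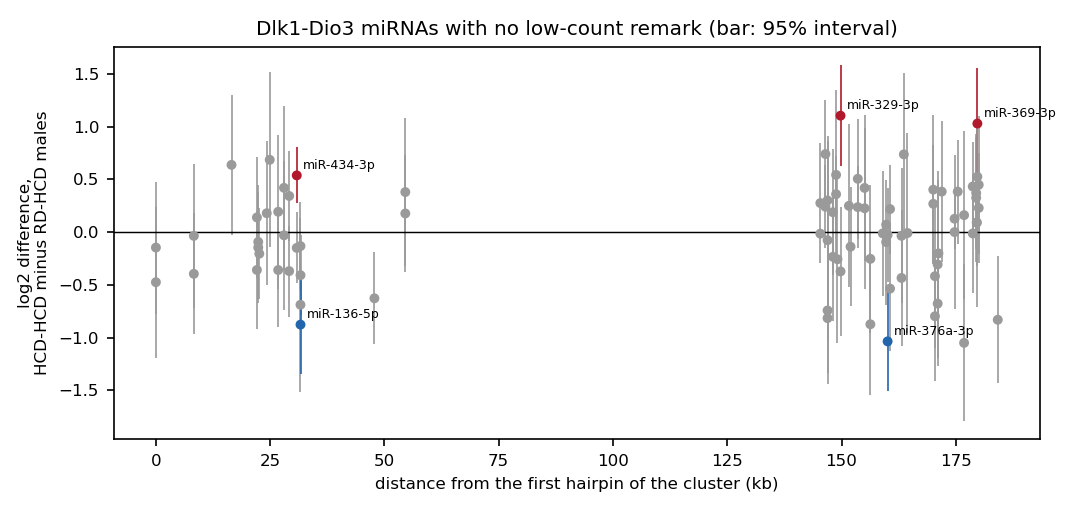
Log2 difference, HCD-HCD minus RD-HCD males (y axis), for 85 miRNAs of the Dlk1-Dio3 cluster with a RefSeq hairpin and no low-count remark, by distance from the first hairpin in kb (x axis). Bars are 95% intervals; red points passed as higher and blue points as lower, and both kinds occur in the same stretches.

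The same change of dam diet was next read in RD-fed males, whose 7 libraries are not among the 6 that made the list. All 28 listed miRNAs with no remark had the same sign in HCD-RD over RD-RD in the authors' deposited table as in the list. The share of equal signs over all miRNAs was not counted. At an adjusted p under 0.05, 22 of the 28 passed in the direction of the list, 18 lower and 4 higher, and 0 in the opposite one. In that comparison 262 of 1426 miRNAs passed, or 18.4%, and of those with no remark 24.2%, 12.4% lower and 11.8% higher. The members' share of 22 of 28 was above that background. Of the 17 unlisted miRNAs called in HCD-fed males, 15 had the same sign and 11 passed in that direction.

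The lower miRNAs had a median log2 fold of -1.74 in HCD-RD over RD-RD males and the higher ones of 0.79, from the authors' deposited table. miR-142a-5p had the lowest ratio, 0.18 in the authors' deposited table, with an adjusted p of 2.89e-11. miR-101c stood at 0.19, miR-33-5p at 0.21 (adjusted p = 8.26e-11) and miR-144-3p at 0.26 (adjusted p = 6.02e-06) in the authors' deposited table. Among the higher ones, miR-34b-3p (2.10), miR-374b-5p (2.09), miR-329-3p (2) and miR-100-5p (1.79) passed, and miR-99a-5p (1.47, adjusted p = 0.0526) did not, by ratios of the authors' deposited table. Across the 657 miRNAs with no remark and a RefSeq sequence, the log2 values in HCD-fed and RD-fed males had a Spearman rho of 0.55 and a Pearson r of 0.61. These are given as a description, since the miRNAs share libraries and 1 normalisation.

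**Figure D4:**
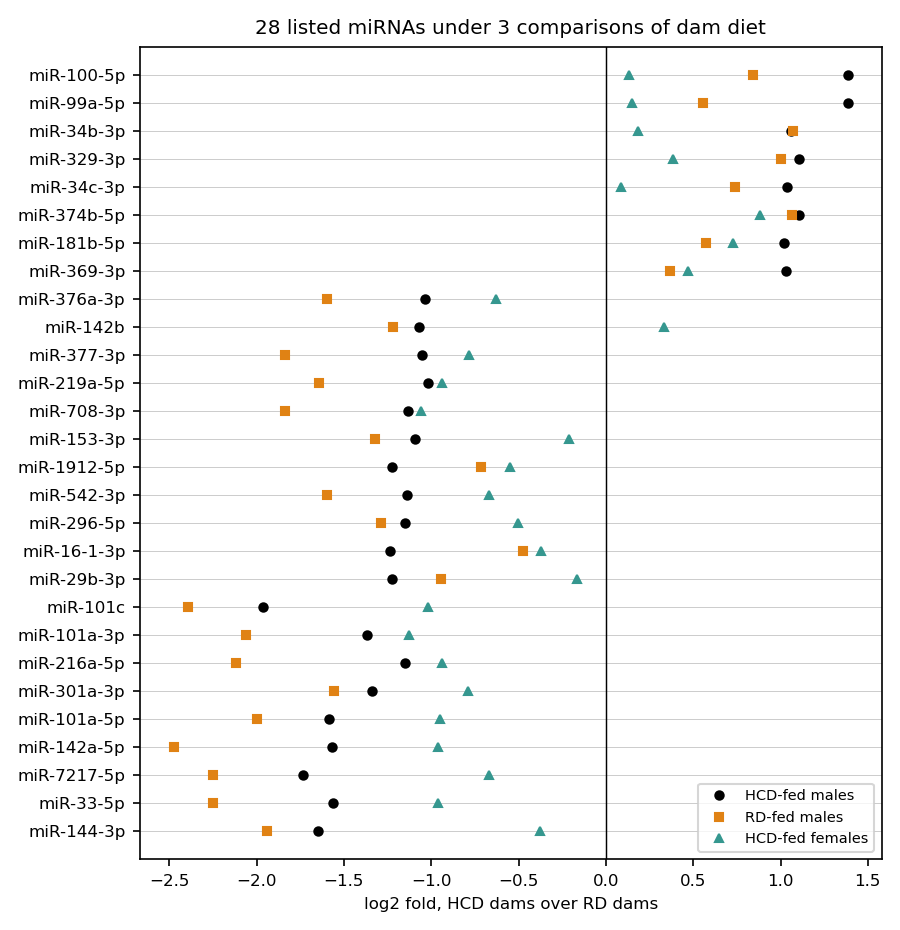
Log2 fold of HCD dams over RD dams (x axis) for the 28 listed miRNAs with no remark (y axis), in HCD-fed males (circles), RD-fed males (squares) and HCD-fed females (triangles). The squares lie on the same side of 0 as the circles for all 28, and the triangles for 27.

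Whether the effect of dam diet differed between HCD-fed and RD-fed males was tested as an interaction over all miRNAs, and 0 of 1415 (0%) passed adjustment. At an unadjusted p under 0.05 there were 100, or 7.07%. The smallest p belonged to miR-6399, a listed miRNA with a remark, at 2.97 ± 0.77, and the smallest among miRNAs with no remark to miR-539-3p (1.99 ± 0.54) and miR-136-3p (0.95 ± 0.27), all at an adjusted p of 0.104 or above. In the other direction miR-342-5p was first, at -1.86 ± 0.53 (adjusted p = 0.11). For miR-100-5p the difference was 0.55, with a 95% interval of -0.15 to 1.24, and for miR-99a-5p it was 0.83, with an interval of 0.20 to 1.46. For miR-33-5p it was 0.69, from -0.18 to 1.56.

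In HCD-fed females, 1 of 1145 miRNAs (0.0873%) passed in the same contrast, miR-1298-5p, at -1.33 ± 0.28 (adjusted p = 0.00215), whose hairpin also lies within Htr2c. In males miR-1298-5p was at -0.06. Of the 28 listed miRNAs with no remark, 27 had the sign in females that they had in males, the exception being miR-142b at 0.33 ± 0.43. None passed adjustment, and 12 were at an unadjusted p under 0.05 in the direction of the list, against 5.33% of all miRNAs in either direction. That share takes in remarked miRNAs. It was not taken for those with no remark, and equal signs were not counted over all miRNAs. The lower listed miRNAs with no remark had a median of -0.73 in females and the higher ones of 0.28. miR-101a-3p (-1.13 ± 0.37), miR-708-3p (-1.06 ± 0.37), miR-33-5p (-0.96 ± 0.40), miR-142a-5p (-0.96 ± 0.39) and miR-219a-5p (-0.94 ± 0.35) were among the 12. In contrast, the differences of miR-100-5p (0.13 ± 0.34) and miR-99a-5p (0.15 ± 0.35) were near 0 in females. Relative to RD-RD females, miR-100-5p stood at 1.57 in HCD-HCD and 1.43 in RD-HCD females in the authors' deposited table.

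**Figure D5:**
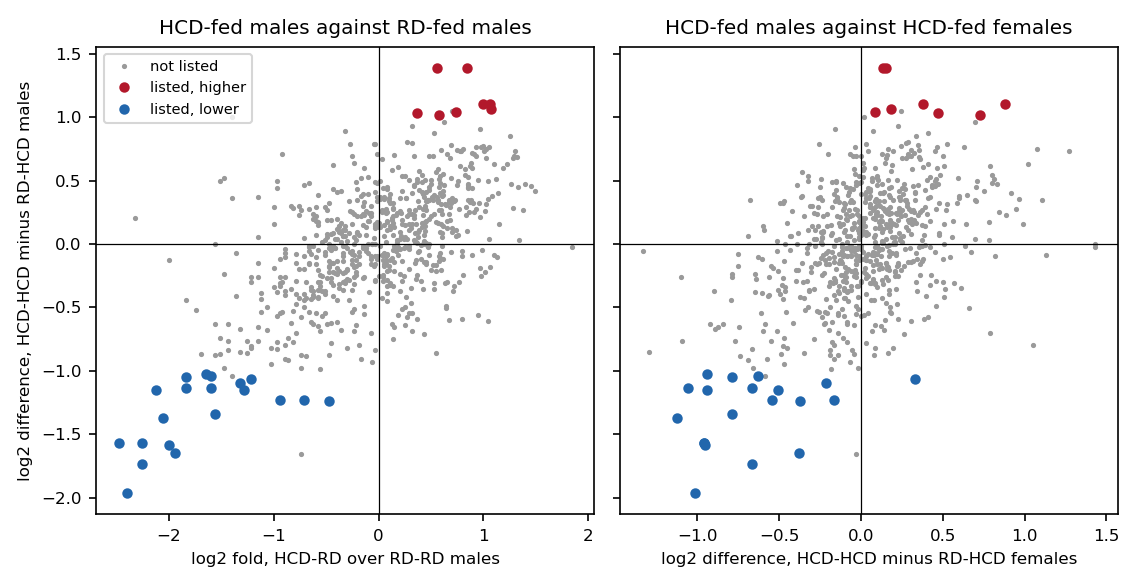
Log2 difference, HCD-HCD minus RD-HCD males (y axes), against HCD-RD over RD-RD males (left x axis) and HCD-HCD minus RD-HCD females (right x axis), all log2, for 752 miRNAs with no remark in the HCD-fed males. Listed higher miRNAs are red and listed lower ones blue; on the left all 28 lie in the quadrants of equal sign, and on the right 27 do.

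The male minus female difference was tested over all miRNAs with both values, and 0 of 970 (0%) passed adjustment, with 52 (5.36%) at an unadjusted p under 0.05. The smallest p in the positive direction belonged to miR-100-5p, at 1.25 ± 0.42, and miR-99a-5p, at 1.23 ± 0.42, each with an adjusted p of 0.348. miR-125b-5p (0.92 ± 0.34), miR-434-3p (0.86 ± 0.32) and miR-92a-3p (1.07 ± 0.40) came next. In the negative direction the first were miR-140-5p (-1.49 ± 0.42) and miR-148a-3p (-1.85 ± 0.53), each with an adjusted p of 0.14. Listed miRNAs were chosen for large male values, so a smaller value in females is in part given by the choice, and no difference between the sexes was called.

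The mature sequences of the lower miRNAs held fewer G and C bases than most. Of the 28, 27 had a sequence: the 19 lower ones had a median GC content of 38.1% (30.0% to 66.7%) and the 8 higher ones of 45.6%, beside 47.8% for the 657 with no remark. Over those 657, GC content and the log2 difference had a Spearman rho of -0.11 in HCD-fed males, 0.17 in RD-fed males and -0.02 in HCD-fed females, as descriptions. Of the 657, 18 were called lower and 16 higher in HCD-fed males. Up to 35% GC, 6 of 52 were called lower and 2 higher, and from 35 to 45%, 9 of 172 lower and 3 higher. From 45 to 55% GC, 2 of 276 were called lower and 9 higher, and above 55%, 1 of 157 lower and 2 higher. Over these bands in order, the median log2 difference in HCD-fed males was -0.06, 0.09, 0.06 and -0.11. In HCD-RD over RD-RD males, from the authors' deposited table, the median log2 fold was -0.39, -0.15, 0.10 and 0.08. The part of base composition in these results was not tested.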

How the data were processed

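The libraries were made with the QIAseq miRNA kit, per the labels' protocols, and molecules were counted by UMI, per the file headers. In the tables, each deposited fold is a ratio of the test to the RD-RD group, to 2 decimals, after DESeq2 normalisation by the authors, per the file headers. The deposited list gives fold regulation, a signed score made by the authors that is the fold or minus its inverse. The deposited p-value is unadjusted and, in the tables, from DESeq2, per the file headers. The header of the list does not say which normalisation it used. The submitters' processing notes name genome build mm10. No aligner, counting rule or tool version is given in the sources used here. The tables used hold no value per library, so depth is unknown and precision was taken from the deposited p-values. The entries were 1618 miRNAs and 103 piRNAs, the latter left out.

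The log2 fold of HCD-HCD minus that of RD-HCD was taken per miRNA. Its standard error came from the spread behind both p-values (size of the log2 fold over the normal score of p, not for a log2 fold under 0.1 in size). A two-sided normal test followed, with Benjamini-Hochberg adjustment over the 1377 miRNAs with a standard error and a call at an adjusted p under 0.05. Of the 1426 miRNAs with a p-value, 49 had no standard error, and the rest of the 1618 had no p-value. The sex difference used the errors of the male and female contrasts. For the interaction, the spread was averaged over the HCD-HCD, RD-HCD and HCD-RD comparisons with RD-RD males. These tests ran in Python 3.11.15 with scipy 1.17.1 and statsmodels 0.14.6. The male contrast and the interaction were also run on simulated normal log2 values. That simulation did not cover low counts, the female contrast or the sex difference. Host genes came from GENCODE annotation of GRCm38, the assembly of mm10. No other per-sample columns were used.

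The members and the 20 lists were chosen with earlier results of these data known, so no list is independent support. Named are the 28 listed miRNAs with no remark and up to 8 unlisted ones per direction with the smallest adjusted p. Also named are the called members and the 2 smallest p of each list, and the 5 smallest p per direction of each difference test. Seed, hairpin or family mates of these are named beside them. miR-451a, miR-6935-5p and the miRNAs at the edge of the list were named after their values were seen. Order numbers in the library names differ among the 6 libraries, and the labels do not say what they mark, so no within-batch value could be made.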

Additional observations from a re-analysis of the deposited data

How the results depend on the processing

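The count of 58 calls in HCD-fed males stayed between 41 and 59 under other estimates of spread, centring, a fold minimum of 1.5, the fold regulation sheet, piRNAs in the adjustment and removal of remarked miRNAs. It was 16 under Benjamini-Yekutieli adjustment and 104 at an unadjusted p under 0.01. Removing remarked miRNAs left 41 calls, 19 of them higher. The count of 24 listed miRNAs under the adjusted limit was 43 at an unadjusted p under 0.01, and 1 reached a fold of 3. The count of 26 listed miRNAs called in RD-fed males, remarked ones included, was 23 without remarked miRNAs and 32 at an unadjusted p under 0.05. The interaction gave 0 calls under each adjusted alternative and 40 at an unadjusted p under 0.01. The female contrast gave 3 calls in place of 1 without remarked miRNAs (miR-1298-5p, miR-34b-5p and miR-664-3p, the latter higher) and 22 at an unadjusted p under 0.01. The male minus female test gave 0 calls under both alternatives. Of 41 named miRNAs, 41 kept their call with the larger variance and 40 with centring, where miR-16-1-3p passed (adjusted p = 0.0475). Since the tables used hold no value per library, leaving out single libraries was not run. No paired analysis was possible because the columns used carry no replicate numbers. With 3 libraries a group, differences that were not called remain within wide intervals.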
